A study of Homo sapiens with 36 samples.

Results

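The expression of 10 genes that encode enzymes cutting the extracellular matrix or shedding cell surface proteins, and the inhibitors of these enzymes, was examined in 3 human melanoma cell lines. The list is fixed by gene name, with no threshold on measured values. They comprised 3 ADAM sheddases (ADAM9, ADAM10 and ADAM17), 4 matrix metalloproteinases (MMP1, MMP2, MMP3 and MMP14) and 3 tissue inhibitors of metalloproteinases (TIMP1, TIMP2 and TIMP3), and all 10 were found among the 60656 genes measured.

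RNA-Seq had been performed on 36 libraries, in 12 groups of 3. All 3 lines carry a BRAF-V600 mutation, a Tet repressor and a lentiviral NR2F1 cDNA that doxycycline (DOX) switches on. WM793TR-NR2F1 is written WM793 here, A375TR-NR2F1 is written A375, and 1205LuTR-NR2F1 is written 1205Lu. NR2F1 is an orphan nuclear receptor that the study examined for its part in tolerance to targeted therapy. In each line, cells received either DMSO (the vehicle) or BRAFi + MEKi for 72 hours, each without and with DOX. The labels give a first day without or with DOX before that, whereas the study's methods describe DOX in the seeding medium, so it is not certain that the groups labelled without DOX never received it. The BRAF inhibitor was PLX4720 at 1 μmol/L, the MEK inhibitor was PD0325901 at 35 nmol/L, and DOX was given at 100 ng/mL. The groups without DOX carried the same Tet repressor and silent cDNA as the groups with it. No group received DOX without the NR2F1 cDNA, so DOX and NR2F1 cannot be told apart. A375 was grown in a medium with more serum than the medium of 1205Lu and WM793, so line and medium cannot be told apart either. By origin, 1205Lu is a metastatic derivative of WM793.

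NR2F1 and DUSP6 were used to check the labels. The mean normalised expression of NR2F1 was 916 in WM793 with DMSO and 64937 with DMSO + DOX, 488 and 22635 in A375, and 3594 and 13041 in 1205Lu. In 1205Lu the libraries did not overlap (2182 to 6273 with DMSO and 9155 to 20699 with DMSO + DOX). The difference was still not called there (1.93 with an SE of 0.38, limma adjusted p = 0.41). Under BRAFi + MEKi without and with DOX it was 1757 and 42977 in WM793, 1327 and 24797 in A375 and 3449 and 33791 in 1205Lu, and NR2F1 was called there in each line (4.99, 4.14 and 3.33). In 1205Lu, NR2F1 was thus higher with BRAFi + MEKi + DOX than with DMSO + DOX (1.48, adjusted p = 0.0097). DUSP6, a phosphatase induced by ERK signaling, had a mean of 3214 with DMSO and 219 with BRAFi + MEKi in 1205Lu, of 4241 and 925 in WM793, and of 4506 and 504 in A375. Of 7 markers of the melanocyte lineage, 5 had a mean of at least 10 in each line, SOX10 among them, while MLANA and TYR were near 0. DCT, a pigment gene of the same list, had a mean of 13.4 with DMSO and 3972 with BRAFi + MEKi in WM793, and of 65.9 and 9306 in A375. In 1205Lu it was 1.33 and 235. S100B was called higher with BRAFi + MEKi in 1205Lu (1.93), WM793 (1.34) and A375 (0.77). SOX10 and MITF were called higher in 1205Lu (0.61 and 0.89) and A375 (0.56 and 1.56), and not called in WM793 (0.25 and -0.08). PMEL was called higher in WM793 (1.59) and A375 (1.7), and not in 1205Lu (1.47, adjusted p = 0.067). Of 6 fibroblast markers, 2 reached a mean of 10 for 1205Lu, 5 for WM793 and 5 for A375. Their summed level in 1205Lu, most of it PDGFRA, was 4228 to 7301 with DMSO and 1006 to 3104 with BRAFi + MEKi. The sum was 4497 to 7342 and 4296 to 5906 in WM793, and 438 to 1072 and 1076 to 1377 in A375. It thus fell in 1205Lu and rose in A375 without overlap of libraries. With BRAFi + MEKi, PDGFRA fell in 1205Lu (5685 to 2315 on the mean, adjusted p = 0.0072) and WM793 (-1.07), COL1A1 rose in WM793 (2.55) and fell in A375 (-1.32), and COL3A1 rose in A375 (3.35 to 265, adjusted p = 1.8e-05). LUM in A375 was 365 and 731 (adjusted p = 0.12). Of 4 leukocyte markers, CD68 alone reached it, while CD3E did not exceed 1.19. The sum of the list was 1919 to 2410 with DMSO and 356 to 582 with BRAFi + MEKi in 1205Lu, 425 to 513 and 517 to 989 in WM793, and 3634 to 4431 and 3207 to 6457 in A375. CD68 fell in 1205Lu (2172 to 474, adjusted p = 1.9e-06) and rose in WM793 (0.84, adjusted p = 0.029), and CD14 fell in A375 from a mean of 3.99 to 0.152. PTPRC was 91.0 in 1 WM793 DMSO library. In A375 it was 0 in the 3 DMSO libraries, 18.6 ± 10.7 with BRAFi + MEKi (at least 6.54 in each library) and 4.96 ± 1.40 with BRAFi + MEKi + DOX (SD, n = 3), and its rise with BRAFi + MEKi was called (limma adjusted p = 5.7e-05). Of the endothelial markers, VWF rose with BRAFi + MEKi in 1205Lu (2.63, adjusted p = 0.0047) and CDH5 fell in A375 (-1.73, adjusted p = 0.045). No keratinocyte marker was called in any line. Of the markers of dedifferentiated melanoma, AXL fell in 1205Lu (-0.61) and A375 (-1.83) and rose in WM793 (1.27). EGFR fell in 1205Lu (-0.79) and A375 (-1.92), and NGFR rose in WM793 (3.61). The part of other cell types in the results was not tested. The depth, estimated from the commonest low value of each library, was 23.1 M to 60.5 M reads (M, mega), except for WM793 DMSO replicate 1 at 7.0 M. The value that 1 read is worth ranged from 0.49 to 4.79 over the libraries, so the lowest values of MMP1 and MMP3 rest on a handful of reads.

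As background, MMPs are secreted or membrane-bound zinc endopeptidases made as inactive proenzymes. MMP1 is an interstitial collagenase that cuts fibrillar collagen, MMP2 is a gelatinase that degrades denatured and basement membrane collagen, MMP3 is a stromelysin with a broad range of substrates, and MMP14 is a membrane-anchored collagenase that activates proMMP2 with the help of TIMP2. ADAM10 and ADAM17 release the extracellular parts of membrane proteins such as Notch receptors, EGFR ligands and TNF, and ADAM9 is a related membrane protease. TIMPs bind the active site of these enzymes. TIMP3 stays bound to the matrix and is the main TIMP that inhibits ADAM17, and TIMP1 is a poor inhibitor of MMP14. In melanoma, MMP1 transcription is known to depend on ERK signaling through AP-1 and ETS factors. Transcript levels do not report on proenzyme cleavage, secretion or activity.

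The lines differed most in MMP1. In WM793 with DMSO, the normalised expression of MMP1 was 14984, 28254 and 12579. In 1205Lu with DMSO it was 234, 86.1 and 80.5, and in A375 it was 8.77, 24.4 and 57.3. The lowest WM793 library was thus far above every library of the other lines. MMP1 was higher in WM793 than in 1205Lu by 7.20 ± 0.83 (SE) on the log2(value + 1) scale (limma adjusted p = 3.7e-08) and higher than in A375 by 9.48 ± 0.83 (adjusted p = 6.6e-11). MMP1 was also higher in 1205Lu than in A375, by 2.28 ± 0.83 (adjusted p = 0.024, range over 13 alternatives 0.0098 to 0.16). That call was lost without 1205Lu DMSO replicate 1 (1.79, adjusted p = 0.12), without A375 DMSO replicate 1 (1.62, adjusted p = 0.16) and with a pseudocount of 0.1 (adjusted p = 0.14).

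MMP2 followed another order, with WM793 highest, A375 between and 1205Lu lowest. Its values with DMSO were 34739, 37567 and 42183 in WM793. They were 15160, 15835 and 17017 in A375 and 8734, 6152 and 6940 in 1205Lu. No libraries of different lines overlapped. WM793 exceeded A375 by 1.25 ± 0.12 (adjusted p = 6.3e-10) and 1205Lu by 2.40 ± 0.12 (adjusted p = 5.6e-16), and A375 exceeded 1205Lu by 1.15 (log2 difference of 1205Lu against A375 -1.15 ± 0.12, adjusted p = 3e-09). MMP3 was low everywhere. It was 52.3, 38.2 and 12.4 in WM793, 3.76, 0.725 and 33.4 in A375, and 0, 0.449 and 8.79 in 1205Lu. MMP3 was higher in WM793 than in 1205Lu by 3.65 ± 0.90 (adjusted p = 0.0019).

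The inhibitors were distributed in another way. TIMP3 with DMSO was 22696, 36017 and 28518 in WM793, against 45102, 73957 and 64046 in 1205Lu and 79291, 79457 and 72080 in A375. WM793 was thus the line with the least TIMP3, below 1205Lu (log2 difference -1.07 ± 0.22, adjusted p = 0.00024) and below A375 (-1.43 ± 0.22, adjusted p = 2.1e-06). The 1205Lu and A375 libraries overlapped (-0.36 ± 0.22, adjusted p = 0.18). TIMP1 was 10764, 13543 and 12170 in 1205Lu, above the 4617 to 5043 of WM793 and the 6012 to 6253 of A375. TIMP1 was lower in WM793 than in 1205Lu by -1.33 ± 0.21 (adjusted p = 6.3e-06) and higher in 1205Lu than in A375 by 0.98 ± 0.21 (adjusted p = 0.00022). TIMP2 fell into the order 1205Lu, WM793 and A375, with the difference of WM793 against 1205Lu at -0.65 ± 0.15 (adjusted p = 0.00084) and of WM793 against A375 at 0.85 ± 0.15 (adjusted p = 1.8e-05).

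ADAM9 with DMSO was highest in 1205Lu, at 8840 to 10409, compared with 3670 to 5048 in WM793 (WM793 against 1205Lu -1.13 ± 0.14, adjusted p = 2.6e-07) and 5013 to 6301 in A375 (1205Lu against A375 0.82 ± 0.14, adjusted p = 2.1e-05). MMP14 was higher in 1205Lu than in A375 by 0.96 ± 0.27 (adjusted p = 0.0037, range over 13 alternatives 0.0013 to 0.058), a call lost without 1205Lu DMSO replicate 1 (0.65, adjusted p = 0.058). That library held the highest MMP14 value of the line, 21633. ADAM17 was lower in 1205Lu than in A375 (-0.76 ± 0.21, adjusted p = 0.0035, range 0.00021 to 0.071). Without 1205Lu DMSO replicate 2, which held the lowest ADAM17 value, 994, and the lowest ADAM10 value, 3457, of any library, the difference was -0.45 (adjusted p = 0.071). ADAM10 was then called higher in 1205Lu than in A375 (0.52, adjusted p = 0.0018), where with all libraries it was not (0.19, adjusted p = 0.39). In all, 7 of the 10 genes differed between WM793 and 1205Lu, where 30.7% of 26779 genes tested did. The count was 7 between WM793 and A375 (47.5% of all genes) and 7 between 1205Lu and A375 (46.8%). Between WM793 and A375, the calls of ADAM10 (0.45, adjusted p = 0.03), MMP3 (2.21, adjusted p = 0.043) and MMP14 (0.75, adjusted p = 0.022) were lost with the libraries rescaled to the same total, at adjusted p = 0.18, 0.056 and 0.079. The same rescaling added calls for ADAM9 (-0.47, adjusted p = 0.012), ADAM17 (-0.64, adjusted p = 0.019) and TIMP1 (-0.51, adjusted p = 0.023), all lower in WM793. ADAM17 was also called with the replicate block (-0.48, adjusted p = 0.046), with array weights (-0.46, 0.022) and with only the libraries compared (-0.48, 0.01), and TIMP1 in the last of these (-0.35, 0.0066). The ADAM10 call was also lost without any 1 WM793 DMSO library or without A375 DMSO replicate 3 (adjusted p = 0.056 to 0.19). The MMP3 call was lost with no filter (adjusted p = 0.057), a pseudocount of 0.1 (0.098) or only the libraries compared (0.13), and without WM793 DMSO replicate 1 or 2 or A375 DMSO replicate 1 or 2 (0.11 to 0.31), and the MMP14 call without WM793 DMSO replicate 3 or A375 DMSO replicate 2 (0.11 in both).

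**Figure D1:**
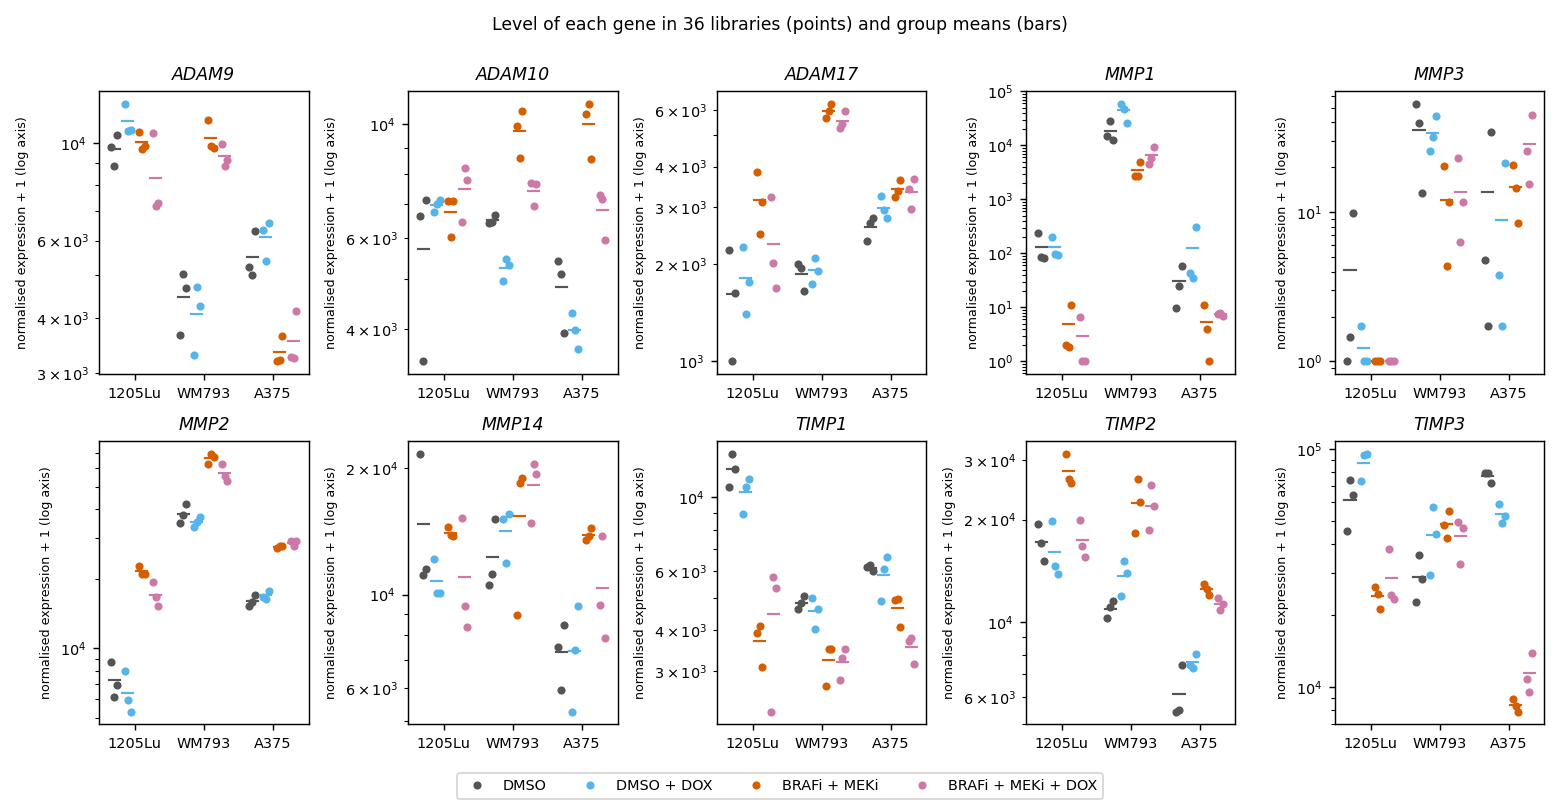
Normalised expression plus 1 (log axis) of each gene in the 36 libraries, by cell line and treatment; points are libraries and short bars are means of 3. The MMP1 points of WM793 lie between 2665 and 59775, while those of 1205Lu and A375 lie between 0 and 304, and the TIMP3 points of A375 drop from at least 72080 with DMSO to at most 8874 with BRAFi + MEKi.

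BRAFi + MEKi against DMSO asks how the genes respond to inhibition of the mutated pathway for 72 hours. MMP1 and TIMP1 fell and MMP2, TIMP2 and ADAM17 rose in each of the 3 lines. TIMP3 fell in 1205Lu and A375 and rose in WM793, and ADAM9 rose in WM793 and fell in A375. In 1205Lu, 3 of the 10 genes rose (16.5% of 22144 genes tested did) and 3 fell (14.4%). In WM793, 6 rose (20.4% of 22074 genes) and 2 fell (16.9% of them). In A375, 5 rose (20.5% of 24370 genes) and 4 fell (19%). The median log2 fold change over the list stood at 0.03 for 1205Lu, 0.66 for WM793 and 0.59 for A375, against 0.11, 0.15 and 0.06 for every gene tested.

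MMP1, the collagenase, had the steepest fall of the 4 MMPs followed here. In 1205Lu it went from 234, 86.1 and 80.5 with DMSO to 1.03, 0.82 and 10.0 with BRAFi + MEKi. In WM793 it went from 14984, 28254 and 12579 to 2665, 2746 and 4978. Neither pair of groups overlapped. MMP1 fell by 5.11 ± 0.84 on the log2 scale in 1205Lu (adjusted p = 0.00049) and by 2.40 ± 0.37 in WM793 (adjusted p = 0.00018), where the remaining level was still above that of either other line with DMSO. In A375, MMP1 was 8.77, 24.4 and 57.3 with DMSO and 10.1, 2.94 and 0 with BRAFi + MEKi, so the groups overlapped and the values are near the limit of detection. The A375 fall of 2.79 ± 0.93 (adjusted p = 0.029, range over 14 alternatives 0.0089 to 0.13) was lost without any of 4 libraries, namely DMSO replicate 2 (adjusted p = 0.068), DMSO replicate 3 (0.12), BRAFi + MEKi replicate 2 (0.061) and BRAFi + MEKi replicate 3 (0.13). The fall of MMP1 was not called different between lines. WM793 minus 1205Lu was 2.71 (95% confidence interval 0.31 to 5.11, limma adjusted p = 0.13), and 1205Lu minus A375 was -2.32 (interval -4.72 to 0.08, adjusted p = 0.20). WM793 minus A375 ranged from -0.51 to 1.59 over 19 alternatives. The intervals are wide, and the one for WM793 minus 1205Lu lies above 0, so these falls are not shown to be alike. Without 1205Lu BRAFi + MEKi replicate 3, which held 10.0, the WM793 minus 1205Lu difference passed (3.55, adjusted p = 0.045).

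MMP2, the gelatinase, moved the other way in every line. In 1205Lu it rose from 8734, 6152 and 6940 to 22738, 20824 and 20916. In WM793 it rose from 34739, 37567 and 42183 to 62611, 69402 and 67207. In A375 it rose from 15160, 15835 and 17017 to 27010, 27622 and 27726. The treated and control libraries did not overlap in any line. The rise was 1.58 ± 0.18 in 1205Lu (2.98-fold, adjusted p = 2.4e-05), 0.80 ± 0.11 for WM793 (1.74-fold, adjusted p = 7.7e-05) and 0.78 ± 0.08 for A375 (1.72-fold, adjusted p = 6.3e-06). The rise was larger in 1205Lu than in WM793 (WM793 minus 1205Lu -0.77 ± 0.17, adjusted p = 0.0021) and larger than in A375 (1205Lu minus A375 0.80 ± 0.17, adjusted p = 0.0018).

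MMP14, the activator of proMMP2, rose in A375 only by this test. Its A375 values were 7505, 5921 and 8466 with DMSO and 13484, 13747 and 14389 with BRAFi + MEKi (0.94 ± 0.21, adjusted p = 0.0031). In 1205Lu the groups overlapped and the log2 fold change was 0.00 with a 95% confidence interval of -0.54 to 0.54. In WM793 the treated values were 8921, 18395 and 18889 against 10558, 11182 and 15118 (0.27, interval -0.27 to 0.80, adjusted p = 0.43, range 0.018 to 0.86). Without WM793 BRAFi + MEKi replicate 1, the low library, the WM793 difference was 0.62 (adjusted p = 0.018). The difference in the response of MMP14 between 1205Lu and A375 was -0.94 ± 0.38 (adjusted p = 0.097), and it was called with a replicate block (adjusted p = 0.041) and with array weights (-0.89, adjusted p = 0.045). MMP3 did not pass the main test in any line, with groups that overlapped in all 3. It was listed at 0 in all 3 BRAFi + MEKi libraries of 1205Lu, was 19.4, 3.39 and 10.6 in WM793 and was 19.8, 13.6 and 7.44 in A375. In WM793, MMP3 passed without DMSO replicate 3 (-2.17, adjusted p = 0.032) or BRAFi + MEKi replicate 1 (-2.09, adjusted p = 0.049), where it had -1.58 ± 0.70 (adjusted p = 0.094, range 0.028 to 0.33) with all libraries.

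The TIMPs split into 3 patterns. TIMP1 fell in each line. In 1205Lu, the values were 10764, 13543 and 12170 with DMSO and 3916, 4116 and 3095 with BRAFi + MEKi. In WM793 they were 4617, 4820 and 5043 against 2701, 3494 and 3498, and in A375 6174, 6253 and 6012 against 4912, 4962 and 4066. Treated libraries were below control libraries without overlap in every line. The log2 fold change was -1.72 ± 0.28 for 1205Lu (adjusted p = 0.00039), -0.59 ± 0.13 for WM793 (adjusted p = 0.0023) and -0.41 ± 0.12 for A375 (adjusted p = 0.017, range 0.0048 to 0.13). The A375 call was lost with the libraries rescaled to the same total (-0.25, adjusted p = 0.12), in 1 fit of all 36 libraries (adjusted p = 0.13) and without DMSO replicate 2 (-0.40, adjusted p = 0.051) or BRAFi + MEKi replicate 3 (-0.32, adjusted p = 0.073). TIMP1 fell further in 1205Lu than in WM793 (WM793 minus 1205Lu 1.13 ± 0.29, adjusted p = 0.0078) and in A375 (1205Lu minus A375 -1.31 ± 0.29, adjusted p = 0.0024).

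TIMP2, which bridges MMP14 and proMMP2, rose in each line. It went from 19482, 17081 and 15116 to 31301, 26329 and 25632 in 1205Lu (0.69 ± 0.17, adjusted p = 0.0085). It went from 10234, 11033 and 11518 to 18235, 26300 and 22484 in WM793 (1.02 ± 0.15, adjusted p = 0.00011), and from 5440, 5504 and 7472 to 12958, 12529 and 11984 in A375 (1.04 ± 0.11, adjusted p = 8.8e-06). No control library reached the lowest treated library of its line. The 3 rises were not called different from each other. The difference was -0.02 for WM793 minus A375 (interval -0.45 to 0.40) and 0.33 for WM793 minus 1205Lu (-0.10 to 0.75). For 1205Lu minus A375 it was -0.35 (-0.78 to 0.08).

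TIMP3, the matrix-bound inhibitor, had opposite responses. In A375 it fell from 79291, 79457 and 72080 to 8874, 8336 and 7862, or 9.21-fold (-3.20 ± 0.13, adjusted p = 2.2e-09). In 1205Lu it fell from 45102, 73957 and 64046 to 26200, 24541 and 21305 (-1.32 ± 0.23, adjusted p = 0.00073). WM793 went against both, and TIMP3 rose there from 22696, 36017 and 28518 to 48100, 42149 and 55182 (0.75 ± 0.24, adjusted p = 0.022, range 0.0045 to 0.09). The groups did not overlap in any of the lines. The WM793 rise did not pass when DMSO replicate 1, the shallow library, was left out (0.59, adjusted p = 0.09) or when BRAFi + MEKi replicate 3 was (0.66, adjusted p = 0.085). The differences between lines passed the test in every pair, at 2.08 ± 0.31 for WM793 minus 1205Lu (adjusted p = 1.9e-05), 3.96 ± 0.31 for WM793 minus A375 (adjusted p = 3.5e-10) and 1.88 ± 0.31 for 1205Lu minus A375 (adjusted p = 8.2e-05). After treatment, WM793 thus held the highest TIMP3 of the lines, where with DMSO it had held the lowest.

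Stretches upstream of the start sites of TIMP1, TIMP3 and ADAM17 are shown because these genes moved in all 3 lines under inhibitors of ERK signaling, whose output includes ETS and AP-1 factors. RefSeq promoter windows of 300 bases (GRCh38.p14, 250 before and 50 after the start) were on hand for 5 of the 10 genes, namely ADAM10, ADAM17, MMP14, TIMP1 and TIMP3, and not for ADAM9, MMP1, MMP2, MMP3 and TIMP2. The 250 bases before the start are printed 5′ to 3′ on the gene's own strand, with the PEA3/ETS core AGGAAG (searched on both strands) in capitals. They are chrX:47582186-47582435 (plus strand) for TIMP1, chr22:32801455-32801704 (plus strand) for TIMP3 and chr2:9555831-9556080 (minus strand) for ADAM17.
TIMP1: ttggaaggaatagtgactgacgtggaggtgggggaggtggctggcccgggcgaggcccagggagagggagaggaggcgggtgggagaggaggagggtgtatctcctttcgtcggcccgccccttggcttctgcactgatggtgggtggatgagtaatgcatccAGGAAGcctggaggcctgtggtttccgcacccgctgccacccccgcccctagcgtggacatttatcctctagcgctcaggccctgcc
TIMP3: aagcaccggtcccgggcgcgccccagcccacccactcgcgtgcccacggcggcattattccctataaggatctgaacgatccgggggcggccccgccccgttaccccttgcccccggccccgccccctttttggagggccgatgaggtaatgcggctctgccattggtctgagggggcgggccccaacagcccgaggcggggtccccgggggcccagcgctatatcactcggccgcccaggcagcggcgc
ADAM17: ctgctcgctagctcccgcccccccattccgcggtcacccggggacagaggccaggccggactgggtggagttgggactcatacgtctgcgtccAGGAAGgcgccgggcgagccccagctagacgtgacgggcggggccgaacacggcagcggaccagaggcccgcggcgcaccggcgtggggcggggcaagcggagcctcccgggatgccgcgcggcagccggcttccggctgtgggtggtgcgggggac
The core began 87 bases before the start in TIMP1 and 157 bases before it in ADAM17. ADAM10 held the core at 134 and 54 bases before the start, and TIMP3 and MMP14 held none. AGGAAG on either strand was found in 33.6% of 35116 promoter windows. Exact matches to the AP-1 consensus TGANTCA, found in 7.71% of windows, and to the nuclear receptor half-site AGGTCA, found in 13.8%, were absent from these 5 windows. No matches overlapped. Looser forms of the AP-1 site were not searched. The TIMP1 stretch holds tgagtaa shortly before its AGGAAG core, which is close to TGANTCA but not an exact match, so an AP-1 site there is not excluded.

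Among the sheddases, ADAM17 rose in all 3 lines, most in WM793. There the values were 1999, 1944 and 1648 with DMSO and 5668, 5960 and 6278 with BRAFi + MEKi (1.68 ± 0.11, adjusted p = 1.3e-07). In 1205Lu they were 2208, 994 and 1621 against 3848, 2476 and 3105 (1.02 ± 0.30, adjusted p = 0.019, range 0.00038 to 0.091), while A375 had 2353, 2673 and 2769 against 3224, 3372 and 3632 (0.39 ± 0.11, adjusted p = 0.01, range 0.0011 to 0.16). The groups did not overlap, but the calls in 1205Lu and A375 rested on single libraries. The 1205Lu call was lost without DMSO replicate 2 (0.71, adjusted p = 0.091), BRAFi + MEKi replicate 1 (0.86, adjusted p = 0.074) or BRAFi + MEKi replicate 3 (1.02, adjusted p = 0.052), and the A375 call without DMSO replicate 1 (0.32, adjusted p = 0.055) or in 1 fit of all 36 libraries (adjusted p = 0.16). The rise in WM793 exceeded that in A375 by 1.29 ± 0.30 (adjusted p = 0.002). WM793 minus 1205Lu was 0.66 ± 0.30 (adjusted p = 0.15). It was called at the same size with the replicate block (0.66, adjusted p = 0.014), and at a larger one with array weights (0.77, adjusted p = 0.022) and without 1205Lu DMSO replicate 2 (0.97, adjusted p = 0.016). 1205Lu minus A375 was 0.62 ± 0.30 (adjusted p = 0.17), and it was called with the replicate block (0.62, adjusted p = 0.021) and without 1205Lu DMSO replicate 1 (0.89, adjusted p = 0.039).

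ADAM10, the other main sheddase, rose in A375 from 5424, 5123 and 3929 to 10475, 10953 and 8565 (1.06 ± 0.14, adjusted p = 3.8e-05). In WM793 it rose from 6428, 6455 and 6653 to 9891, 8590 and 10586 (0.57 ± 0.10, adjusted p = 0.00042). In 1205Lu the groups overlapped (0.30, 95% confidence interval -0.17 to 0.77, adjusted p = 0.33). Over the 14 alternatives, this log2 fold change ranged from -0.03 to 0.49. WM793 minus 1205Lu was 0.27 (adjusted p = 0.55), and it was called without 1205Lu DMSO replicate 2 (0.60, adjusted p = 0.023). The response of ADAM10 was smaller in 1205Lu than in A375 (-0.76 ± 0.24, adjusted p = 0.031, range over 19 alternatives 0.00012 to 0.15). That difference was lost with only the libraries compared (adjusted p = 0.15) and without any 1 of 6 libraries (1205Lu DMSO replicates 1 and 3, 1205Lu BRAFi + MEKi replicate 2, A375 DMSO replicate 3 and A375 BRAFi + MEKi replicates 1 and 2), at adjusted p = 0.069 to 0.12. ADAM9 took opposite directions. In WM793 it rose from 3670, 5048 and 4671 to 11280, 9807 and 9711 (1.21 ± 0.14, adjusted p = 2e-05), and in A375 it fell from 5214, 5013 and 6301 to 3190, 3211 and 3651 (-0.71 ± 0.13, adjusted p = 0.00051). In 1205Lu it was 9765, 8840 and 10409 against 10551, 9666 and 9850 (0.05, interval -0.28 to 0.39). The differences in response were 1.92 ± 0.20 for WM793 minus A375 (adjusted p = 4.4e-08), 1.16 ± 0.20 for WM793 minus 1205Lu (adjusted p = 0.00017) and 0.77 ± 0.20 for 1205Lu minus A375 (adjusted p = 0.01). In all, the inhibitor response differed between WM793 and 1205Lu in 4 of the 10 genes (14.5% of all genes did), between WM793 and A375 in 3 (22.8%) and between 1205Lu and A375 in 5 (14.7%).

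**Figure D2:**
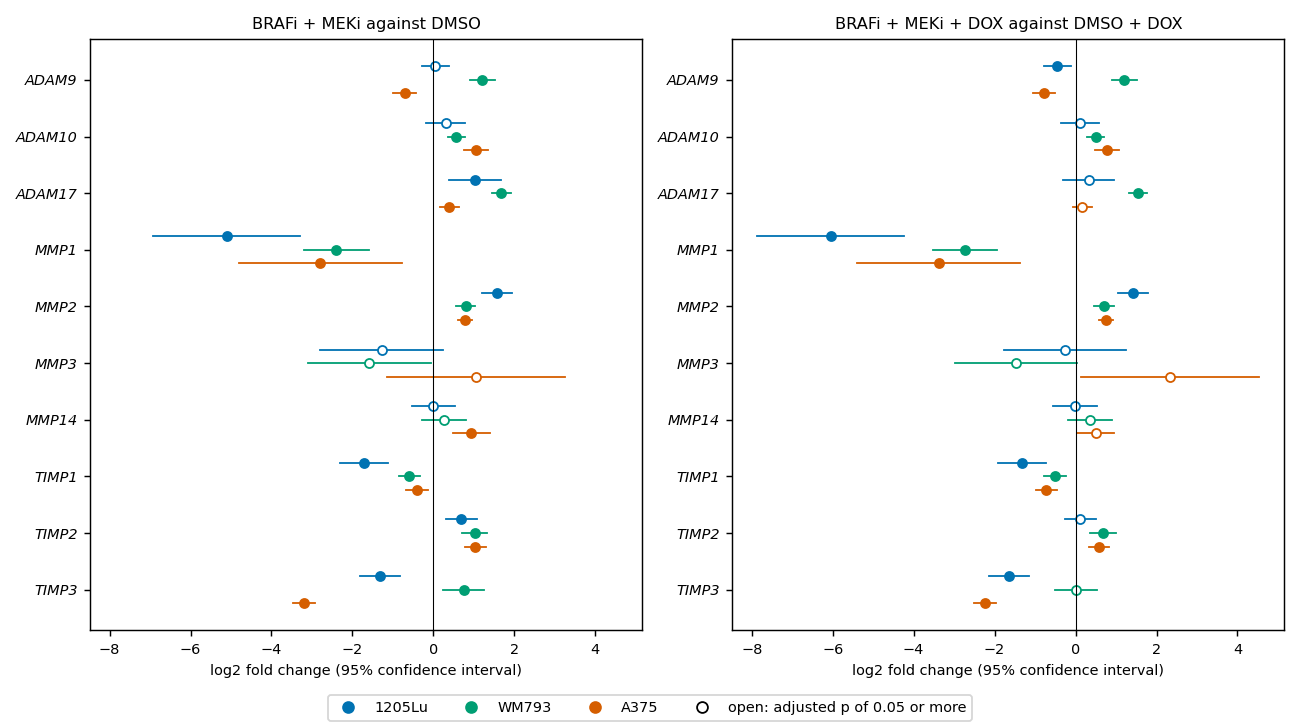
Log2 fold change of each gene after BRAFi + MEKi without DOX (left) and with DOX (right), by cell line, with 95% confidence intervals from limma; filled points have an adjusted p under 0.05. MMP1 and TIMP1 lie left of 0 and MMP2 lies right of 0 in every line, while TIMP3 without DOX is at -3.20 in A375, -1.32 in 1205Lu and 0.75 in WM793.

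Several of these genes overlap a neighbour in their annotated span, introns included. Whether exons overlap was not examined. The TruSeq RNA Library Prep Kit v2 that the labels name does not mark strand, so reads from any stretch that genes on opposite strands share cannot be told apart. TIMP1 lies inside SYN1 and TIMP3 inside SYN3, both on the other strand. SYN1 did not exceed 124 and SYN3 did not exceed 285 in any library, against at least 2268 for TIMP1 and 7862 for TIMP3. WTAPP1, which spans MMP1 and MMP3 on the other strand, did not exceed 16.7. Its mean was at most 0.351 in 1205Lu and in WM793 outside BRAFi + MEKi + DOX (4.26). In A375 it was 2.53 with DMSO, 8.69 with DMSO + DOX, 8.39 with BRAFi + MEKi and 5.57 with BRAFi + MEKi + DOX, against 30.2, 127, 4.35 and 6.49 for MMP1 and 12.6, 7.93, 13.6 and 27.7 for MMP3. In A375, the mean of WTAPP1 was thus above that of MMP1 with BRAFi + MEKi and above that of MMP3 with DMSO + DOX. ADAM17 overlaps IAH1, whose mean with DMSO and with BRAFi + MEKi was 2057 and 2462 in WM793 (log2 fold change 0.28, adjusted p = 0.17) and 1144 and 880 in A375 (-0.38, adjusted p = 0.017). In 1205Lu, IAH1 was 2505 and 2016 (-0.30, adjusted p = 0.26), against 1608 and 3143 for ADAM17. With DMSO, IAH1 was thus above ADAM17 in 1205Lu, and also in WM793, where the mean of ADAM17 was 1864. ADAM9 overlaps TM2D2, whose mean was 834 and 956 in WM793 (0.20, adjusted p = 0.34) and 575 and 914 in A375 (0.66, adjusted p = 0.0024). IAH1 and TM2D2 thus moved against ADAM17 and ADAM9 in A375.

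Compared per kilobase of annotated exon, the makeup of the MMPs changed with treatment in WM793 and 1205Lu, and that of the TIMPs in each line. Among the 4 MMPs in WM793, MMP1 made up 37.7% ± 11.3 (SD, n = 3) of the summed level with DMSO and 6.70% ± 2.05 with BRAFi + MEKi, and the MMP2 share went from 46.8% to 75.8%. In 1205Lu the leading MMP changed from MMP14 (65.7%) to MMP2, with MMP14 then at 40.0%. In A375 the shares hardly moved, with MMP2 at 68.2% and 66.0%. MMP3 did not exceed 0.183% of the MMP sum in any group mean.

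Among the TIMPs, TIMP3 was the most abundant per kilobase in every line with DMSO, at 53.8% in 1205Lu, 54.9% in WM793 and 76.1% in A375. With BRAFi + MEKi it remained first in WM793 (64.3%). In A375 its share was 25.8%, below TIMP1 at 45.5% and TIMP2 at 28.6%. In 1205Lu it was 42.6%, with TIMP2 at 36.5%, an order that turned when the length of the longest transcript was used (32.2% and 46.9%). TIMP2 thus gained share in every line, from 11.7% to 36.5% in 1205Lu, from 15.5% to 22.0% in WM793 and from 4.52% to 28.6% in A375.

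**Figure D3:**
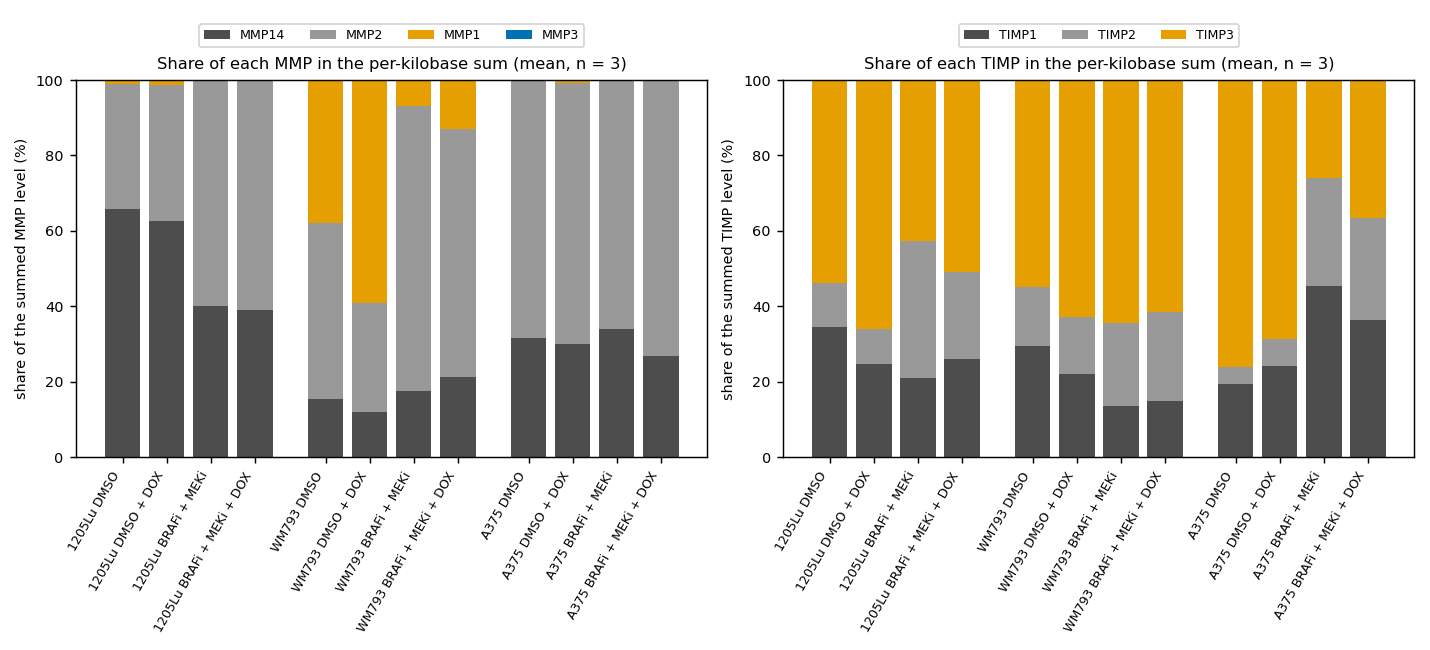
Share of each gene in the summed per-kilobase level of the 4 MMPs (left) and the 3 TIMPs (right), as the mean of 3 libraries in each of the 12 groups. MMP1 is visible mainly in WM793, at 37.7% with DMSO and 6.70% with BRAFi + MEKi, and the TIMP3 share of A375 goes from 76.1% to 25.8%.

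The ratio of the summed MMP level to the summed TIMP level, both per kilobase, was computed in each library as a description of transcripts. In 1205Lu it was 0.325, 0.133 and 0.161 with DMSO and 0.592, 0.598 and 0.682 with BRAFi + MEKi. In A375 it was 0.217, 0.207 and 0.261 with DMSO and 1.17, 1.22 and 1.40 with BRAFi + MEKi. In WM793 it was 1.55, 1.60 and 1.46 with DMSO and 1.06, 1.25 and 1.12 with BRAFi + MEKi. The ratio was thus higher under BRAFi + MEKi in 1205Lu and A375 and lower in WM793, with no overlap of libraries in any line. The MMP sum in WM793 was 17581 ± 2862 with DMSO and 18714 ± 2173 with BRAFi + MEKi, and the TIMP sum was 11423 ± 1587 and 16377 ± 1469. In A375 the MMP sum was 4997 ± 435 and 8843 ± 169, and the TIMP sum was 21977 ± 812 and 7043 ± 517. The 3 lines, whose ratios spanned 0.133 to 1.60 with DMSO, spanned 0.592 to 1.40 with BRAFi + MEKi.

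**Figure D4:**
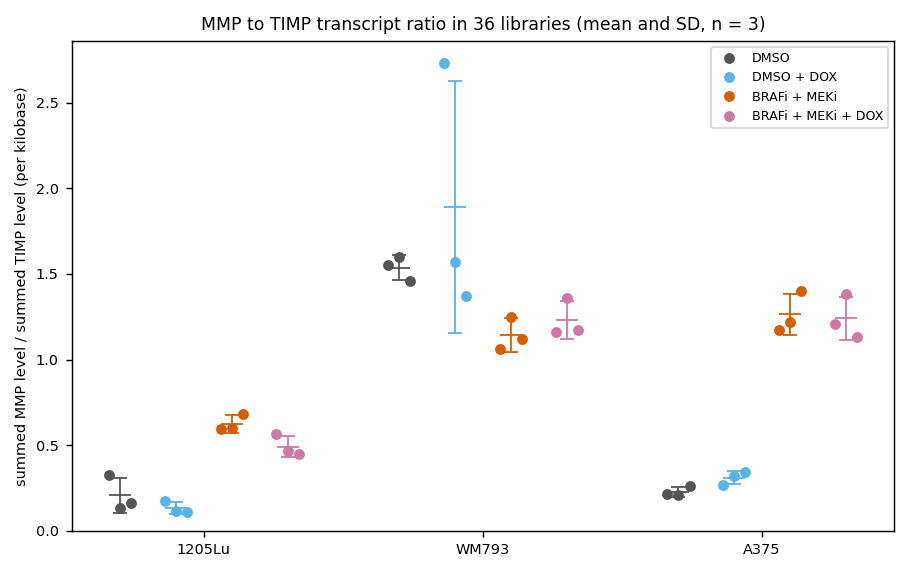
Ratio of the summed MMP to the summed TIMP level per kilobase in each library (points), with the mean and SD of 3 libraries, by line and treatment. The ratio of A375 moves from 0.207 to 0.261 with DMSO to 1.17 to 1.40 with BRAFi + MEKi, while WM793 moves down from 1.46 to 1.60 to 1.06 to 1.25.

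BRAFi + MEKi + DOX against DMSO + DOX gives the response to the inhibitors in cells given DOX. In 1205Lu, the induction of NR2F1 was not called under DMSO. NR2F1 itself was higher there with BRAFi + MEKi + DOX than with DMSO + DOX (1.48, limma adjusted p = 0.0097), so this comparison also changed NR2F1. MMP1 and TIMP1 fell and MMP2 rose in every line. The log2 fold change of TIMP1 was -1.32 in 1205Lu (adjusted p = 0.0029) and -0.72 for A375 (adjusted p = 0.00061). For WM793 it was -0.50 (adjusted p = 0.0074), where the call was lost in 1 fit of all 36 libraries (adjusted p = 0.072). Of the 10 genes, 5 passed in 1205Lu (28.2% of all genes), 7 in WM793 (31.7%) and 7 in A375 (31%). MMP1 was 203, 97.6 and 94.7 with DMSO + DOX and 5.74, 0 and 0 with BRAFi + MEKi + DOX in 1205Lu (-6.04 ± 0.84, adjusted p = 0.00017). In WM793 it was 59775, 48150 and 25705 against 4629, 5799 and 9331 (-2.74 ± 0.37, adjusted p = 8e-05). In A375 it was 42.3, 34.5 and 304 against 6.63, 6.84 and 5.99 (-3.38 ± 0.93, adjusted p = 0.014, range 0.0026 to 0.071), a call lost without DMSO + DOX replicate 3 (-2.39, adjusted p = 0.066) and with a pseudocount of 0.1 (adjusted p = 0.071). MMP2 rose by 1.42 ± 0.18, 0.70 ± 0.11 and 0.76 ± 0.08 in 1205Lu, WM793 and A375.

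TIMP3 with DOX fell in 1205Lu (-1.65 ± 0.23, adjusted p = 0.00017) and in A375 (-2.24 ± 0.13, adjusted p = 6.6e-08). In WM793 it was 29585, 57051 and 44005 with DMSO + DOX and 49498, 32814 and 46715 with BRAFi + MEKi + DOX, groups that overlapped (0.01, 95% confidence interval -0.50 to 0.52). TIMP2 rose in WM793 (0.68 ± 0.15, adjusted p = 0.003) and also A375 (0.57 ± 0.11, adjusted p = 0.0018), and had a log2 fold change of 0.12 in 1205Lu (interval -0.25 to 0.50, adjusted p = 0.64). ADAM17 passed in WM793 alone by this test (1.54 ± 0.11, adjusted p = 4.1e-07), with 0.32 in 1205Lu (adjusted p = 0.45) and 0.16 in A375 (adjusted p = 0.29). ADAM10 rose in WM793 (0.50 ± 0.10, adjusted p = 0.0014) and A375 (0.77 ± 0.14, adjusted p = 0.00078), and ADAM9 rose in WM793 (2.3-fold, adjusted p = 3e-05) and fell in A375 (-0.78 ± 0.13, adjusted p = 0.00039). In 1205Lu, ADAM9 passed narrowly (-0.45 ± 0.16, adjusted p = 0.046, range 0.00072 to 0.17) and was lost with no filter on low values (0.06), with equal totals (0.17), with only the libraries compared (0.089) and without any 1 of 5 libraries (DMSO + DOX replicates 1, 2 and 3 and BRAFi + MEKi + DOX replicates 2 and 3), at adjusted p = 0.081 to 0.17. In A375, MMP14 had 0.50 ± 0.21 (adjusted p = 0.095, range 0.03 to 0.36), and passed with equal totals (0.63, adjusted p = 0.031) and without DMSO + DOX replicate 3 (0.70, adjusted p = 0.03) or BRAFi + MEKi + DOX replicate 3 (0.68, adjusted p = 0.037). MMP3 had 2.34 ± 1.02 there and was not called (adjusted p = 0.1, range 0.025 to 0.34). It passed with the replicate block (2.34, adjusted p = 0.042), with array weights (2.82, adjusted p = 0.027) and without DMSO + DOX replicate 3 (3.35, adjusted p = 0.025). In WM793, MMP3 went the other way, with groups that did not overlap (-1.47 ± 0.70, adjusted p = 0.13). It passed there with array weights (-1.71, adjusted p = 0.018).

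BRAFi + MEKi + DOX against BRAFi + MEKi asks what NR2F1 induction adds in treated cells. In the main fit, which has no replicate block, none of the 10 genes passed the limma test in any line. There, 0.334% of genes did in 1205Lu, 0.204% in WM793 and 1.52% in A375. Some alternatives called single genes, with and without that block. At an unadjusted p under 0.05 there were 1, 2 and 3 of the 10 genes. The share of all genes at that threshold is not given here, so nothing is read from these counts. The largest shifts with groups that did not overlap were of TIMP2 and ADAM10. TIMP2 in 1205Lu was 31301, 26329 and 25632 with BRAFi + MEKi and 19912, 16734 and 15505 with BRAFi + MEKi + DOX (-0.68 ± 0.17, adjusted p = 0.14, range 0.0078 to 0.48). With the replicate number as a block, which the libraries of this comparison warranted, the adjusted p of TIMP2 was 0.0093, and without BRAFi + MEKi + DOX replicate 1 it was 0.036. With array weights it was 0.0078 (-0.71), and in 1 fit of all 36 libraries 0.012. ADAM10 in A375 was 10475, 10953 and 8565 against 7288, 7152 and 5954 (-0.55 ± 0.14, adjusted p = 0.073, range 0.0025 to 0.34). With the replicate block its adjusted p was 0.0025, with array weights 0.0085, and without BRAFi + MEKi replicate 3 it was 0.029 (-0.66).

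The other values with DOX under BRAFi + MEKi were smaller or less certain. ADAM10 in WM793 was 9891, 8590 and 10586 against 7669, 6925 and 7642 (-0.38 ± 0.10, adjusted p = 0.2), and in 1205Lu it was 7097, 6020 and 7097 against 6454, 8217 and 7783 (0.15, 95% confidence interval -0.32 to 0.62). TIMP3 in A375 was 8874, 8336 and 7862 against 10796, 9495 and 13900 (0.43 ± 0.13, adjusted p = 0.16). TIMP1 in A375 was 4912, 4962 and 4066 against 3694, 3786 and 3149, groups that did not overlap (-0.39 ± 0.12, adjusted p = 0.2). Besides TIMP2 in 1205Lu and ADAM10 in A375, array weights called TIMP1 in A375 (-0.40, adjusted p = 0.026), ADAM10 in WM793 (-0.39, adjusted p = 0.029) and ADAM9 in 1205Lu (-0.41, adjusted p = 0.046). MMP1 in WM793 was 2665, 2746 and 4978 against 4629, 5799 and 9331, groups that overlapped (0.93, interval 0.13 to 1.72, adjusted p = 0.53). For MMP2 in A375 the interval was narrow, at -0.12 to 0.23. The effect of DOX under BRAFi + MEKi was not called different between any pair of lines for any of the 10 genes (limma), where 0.138% (WM793 against 1205Lu), 0.881% (WM793 against A375) and 0.179% (1205Lu against A375) of genes were. At an unadjusted p under 0.05 there were 2, 0 and 3 of the 10 genes, again with no share of all genes given at that threshold. With the replicate block, TIMP2 was called for WM793 minus 1205Lu (0.66, adjusted p = 0.014, against 0.26 without it). Array weights called TIMP2 there too (0.68, adjusted p = 0.023), and for 1205Lu minus A375 TIMP1 (0.91, adjusted p = 0.016) and ADAM10 (0.78, adjusted p = 0.031). TIMP1 for 1205Lu minus A375 was 0.55 (adjusted p = 0.69) with all libraries. Without 1205Lu BRAFi + MEKi + DOX replicate 1 it was 0.98 (adjusted p = 0.0084).

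DMSO + DOX against DMSO gives the DOX comparison in cells without inhibitors, and shares the DMSO libraries with the comparisons above. None of the 10 genes passed in any line (0.00903% of genes in 1205Lu, 0.512% in WM793 and 0.0492% in A375). An unadjusted p under 0.05 was reached by 1, 4 and 2 of them. With no share of all genes given at that threshold, nothing is read from these counts. MMP1 in WM793 was 14984, 28254 and 12579 with DMSO and 59775, 48150 and 25705 with DMSO + DOX, groups that overlapped (1.27 ± 0.37, adjusted p = 0.21). TIMP3 in A375 was 79291, 79457 and 72080 against 58947, 48720 and 52181, groups that did not overlap (-0.53 ± 0.13, adjusted p = 0.26). TIMP3 in 1205Lu was 45102, 73957 and 64046 against 73617, 94422 and 95925 (0.55 ± 0.23, adjusted p = 0.68).

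The effect of DOX under BRAFi + MEKi minus that under DMSO was tested as a difference. It was called for TIMP3 in A375 alone, at 0.96 ± 0.18 (adjusted p = 0.032, range over 20 alternatives 0.0053 to 0.21), where 0.46% of all genes were called. The DOX effect on TIMP3 in A375 was -0.53 without inhibitors (adjusted p = 0.26) and 0.43 with them (adjusted p = 0.16), so neither effect was called on its own. That call was lost without any 1 of 9 of the 12 libraries, at adjusted p = 0.051 to 0.12. These were the 3 DMSO libraries, DMSO + DOX replicates 2 and 3, the 3 BRAFi + MEKi libraries and BRAFi + MEKi + DOX replicate 1. No gene of any kind was called in this comparison in 1205Lu (0%) or WM793 (0%). An unadjusted p under 0.05 was found there for 2 and 1 of the 10 genes, with no share of all genes given at that threshold.

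**Figure D5:**
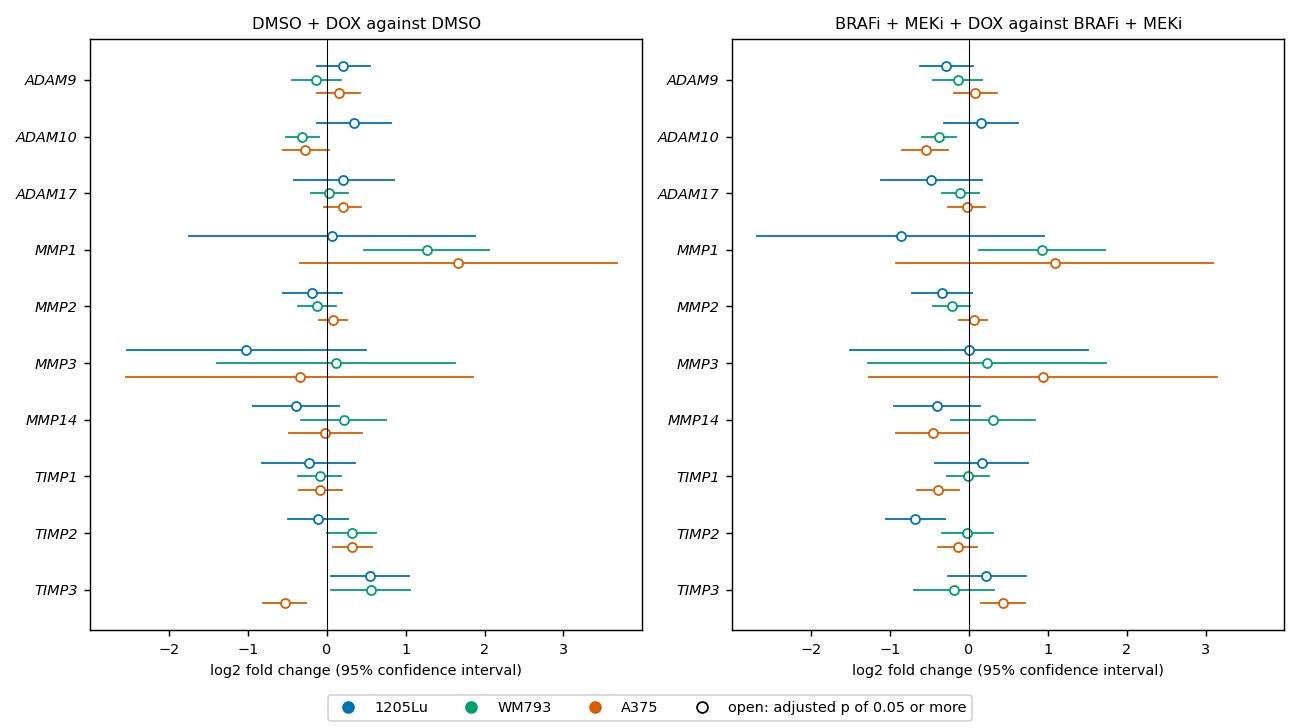
Log2 fold change of each gene with DOX in cells given DMSO (left) and in cells given BRAFi + MEKi (right), by cell line, with 95% confidence intervals from limma. All points are open, since no gene had an adjusted p under 0.05 in this fit without the replicate block. The points of MMP1 and MMP3 have the widest intervals.

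Related proteases were followed through lists, whose counts stand beside those of all genes tested. With BRAFi + MEKi, 16.5% of all genes rose and 14.4% fell in 1205Lu, 20.4% rose and 16.9% fell in WM793, and 20.5% rose and 19% fell in A375, with a median log2 fold change of 0.11, 0.15 and 0.06. Of 19 other MMPs, 14 were tested in 1205Lu and 5 rose and 1 fell with BRAFi + MEKi. In WM793, 5 rose and 2 fell of 14, and in A375 6 rose and 2 fell of 17, with a median log2 fold change of 0.02, 0.36 and 1.24 in the 3 lines. MMP15, a membrane-type MMP like MMP14, rose in each line (2.99 in 1205Lu, 1.13 in WM793 and 2.45 in A375). MMP17, a membrane MMP with a lipid anchor, rose by 1.56, 1.22 and 2.89, and MMP19 by 5.43, 4.63 and 1.26. MMP16, another membrane-type MMP, fell in WM793 from 6035 ± 1123 to 669 ± 57.2 (-3.16 ± 0.18, adjusted p = 5e-08), and MMP8 fell there by 2.09 (-2.09, adjusted p = 0.0063). The gelatinase MMP9 was low in A375, at 17.7 ± 3.0 with DMSO and 1.17 with BRAFi + MEKi (-3.28 ± 0.70, adjusted p = 0.002). MMP28 rose in 1205Lu (2.58 ± 0.55, adjusted p = 0.0029). In treated cells, DOX brought none of the other MMPs past the limma threshold in the 3 lines.

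Of 14 other ADAMs, 10 or 11 were tested in each line. With BRAFi + MEKi, 1 rose and 1 fell in 1205Lu, 2 rose and 2 fell in WM793, and 4 rose and 1 fell in A375, with medians of 0.48, 0.0 and 0.45. ADAM19 rose from 2362 ± 145 to 14677 ± 1923 in 1205Lu (2.63 ± 0.15, adjusted p = 8.6e-08) and from 956 ± 141 to 4935 ± 1868 in WM793 (2.30 ± 0.35, adjusted p = 0.00016). ADAM12 took opposite directions, with 3.21 ± 0.26 in A375 and -1.01 ± 0.15 in WM793. ADAM23, an ADAM without protease activity, rose in WM793 (1.99 ± 0.17), and ADAM8 (2.15 ± 0.41) and ADAM21 (1.87 ± 0.34) rose in A375, while ADAM15 fell in 1205Lu (-0.41 ± 0.13, adjusted p = 0.025). With DOX in treated cells, 2 other ADAMs passed. ADAM19 was lower in 1205Lu (6068 ± 820 against 14677 ± 1923, adjusted p = 0.0049), and ADAM23 was lower in WM793 (2154 ± 250 against 6176 ± 1177, -1.51 ± 0.17, adjusted p = 0.0038).

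Of 19 ADAMTS proteases, secreted relatives with thrombospondin repeats, 17 were tested in 1205Lu and 7 rose and 1 fell with BRAFi + MEKi, 5 rose and 5 fell of 17 in WM793, and 6 rose and 4 fell of 19 in A375, with medians of 0.96, 0.37 and -0.18. ADAMTS15, an aggrecan-cleaving member, rose by 5.93 in 1205Lu, 4.38 in WM793 and 3.79 in A375. With DOX in treated cells, ADAMTS15 was lower in WM793 (639 ± 99.6 against 2342 ± 488, -1.86 ± 0.23, adjusted p = 0.0047) and ADAMTS4 was lower in A375 (33.8 ± 3.17 against 101 ± 26.3, -1.53 ± 0.24, adjusted p = 0.0032). ADAMTS5, an aggrecanase, rose in WM793 (3.36 ± 0.43) and ADAMTS17 in A375 (4.13 ± 0.48), while ADAMTS2, a procollagen peptidase, fell in A375 from 14.8 ± 7.06 to 0.127 ± 0.22.

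Of 19 sheddase cofactors and other inhibitors, 6 rose and 3 fell in 1205Lu, 5 rose and 3 fell in WM793 and 7 rose and 3 fell in A375, with medians of 0.77, 0.36 and 0.28. Of the 6 tetraspanins of this list, which escort ADAM10 to the cell surface, 2 rose and 1 fell in 1205Lu, 3 rose and 1 fell in WM793, and 2 rose and 2 fell in A375. TSPAN15 rose by 3.05, 1.99 and 2.82 in 1205Lu, WM793 and A375, TSPAN14 fell in the same lines (-1.11, -2.26 and -1.34), and TSPAN33 rose in 1205Lu (1.29 ± 0.19) and WM793 (1.76 ± 0.11) and had 0.58 ± 0.29 in A375 (adjusted p = 0.13). TSPAN17 rose in WM793 (1.12) and A375 (0.56), with -0.33 in 1205Lu (adjusted p = 0.07). TSPAN5 fell in A375 (-0.33, adjusted p = 0.047), and TSPAN10 was not called in any line (adjusted p = 0.13 to 0.59). TIMP4, the remaining member of the TIMP family, rose in A375 from a level near 0 (0.336 ± 0.582) to 6.54 ± 1.44 (2.56 ± 0.52, adjusted p = 0.0013). A2M, a plasma protease inhibitor, was lower with DOX in treated A375 cells (859 ± 93.2 against 5366 ± 233, -2.65 ± 0.33, adjusted p = 0.00048).

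Of 35 sheddase substrates, 7 rose and 11 fell of 32 tested in 1205Lu, 12 rose and 7 fell of 33 in WM793, and 11 rose and 12 fell of 35 in A375, where 16.5% of all genes rose and 14.4% fell in 1205Lu, 20.4% and 16.9% in WM793, and 20.5% and 19% in A375. The medians of the list were -0.06, 0.45 and 0.01. MET, a receptor kinase, fell from 848 ± 393 to 91.0 ± 51.1 in 1205Lu (-3.29 ± 0.47), and SDC1, a heparan sulfate proteoglycan, from 3363 ± 458 to 408 ± 141 (-3.10 ± 0.28). Both also fell in WM793 (-1.47 and -1.46) and in A375 (-0.56 and -3.10). In A375 the EGFR ligands AREG (-4.89 ± 0.47) and TGFA (-3.11 ± 0.27) and the chemokine CX3CL1 (-5.07 ± 0.70) fell, and CX3CL1 fell in 1205Lu (-1.53) and WM793 (-1.03) too. In WM793, TNF fell from 20.1 ± 8.84 to 0.293 ± 0.508 and the adhesion molecule ALCAM rose from 879 ± 205 to 6024 ± 347 (2.80 ± 0.17, adjusted p = 8.4e-08). TNF fell in 1205Lu (-2.31) and A375 (-3.0) as well. With DOX in treated cells, the EGFR ligand HBEGF was lower in A375 (351 ± 24.8 against 680 ± 159, -0.92 ± 0.21, adjusted p = 0.04).

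Plasmin activates several proMMPs, and 8 of 9 genes of plasminogen activation were tested in each line. With BRAFi + MEKi, 1 rose and 4 fell in 1205Lu, 2 rose and 2 fell in WM793, and 2 rose and 6 fell in A375, with medians of -1.51, 0.03 and -2.49. PLAT, a plasminogen activator, fell in 1205Lu (-1.83), WM793 (-0.67) and A375 (-1.45). PLAUR, the urokinase receptor, fell in 1205Lu (-1.62 ± 0.17, adjusted p = 1.8e-05). SERPINE2, a serine protease inhibitor, fell in 1205Lu (-1.41), WM793 (-1.55) and A375 (-2.67). PLAU, urokinase, fell in A375 from 56.1 ± 41.7 to 4.63 ± 3.06 (-3.20 ± 0.67, adjusted p = 0.0018), and ANXA2, a plasminogen receptor, rose in WM793 from 17563 ± 4513 to 134919 ± 26907 (2.95 ± 0.25, adjusted p = 9.5e-07). The rise of ANXA2 was 1.08 in 1205Lu and 0.60 in A375, both called.

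Of the 19 AP-1 and ETS factors and ERK feedback genes, 9 fell and 2 rose in 1205Lu (14.4% of all genes fell), 11 fell and 3 rose in WM793 (16.9% fell), and 13 fell and 3 rose in A375 (19% fell), with a median log2 fold change of -1.06, -1.12 and -1.35. ETV4, a PEA3-type ETS factor, fell in each line (-5.99, -3.34 and -7.13), as did ETV5 (-4.27, -1.72 and -2.40) and the feedback gene SPRY4 (-5.75, -5.90 and -4.49). FOSL1, an AP-1 subunit, fell in A375 from 9939 ± 2117 to 237 ± 9.3 (-5.36 ± 0.19, adjusted p = 8.8e-10), and FOSB fell in WM793 (-3.76 ± 0.37). JUN rose in WM793 from 211 ± 82.2 to 3548 ± 1781 (4.0 ± 0.47, adjusted p = 1.7e-05). With DOX in treated cells, none of these factors passed in any line (limma).

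Across the 36 libraries, after the mean of its line was taken from each value, the 3 most similar genes among 11847 protein-coding genes with a mean of at least 100 were found for each of the 10 as a description. The libraries of a line share their line mean and the inhibitor contrast, and no test was made. MMP1 was most like PMAIP1, a BH3-only apoptosis gene (Pearson r = 0.94, and 0.96, 0.94 and 0.88 within 1205Lu, WM793 and A375), ZFP69B (0.92) and RASSF3 (0.91). MMP2 was most like CHMP1B, an ESCRT subunit (0.96), CYP2U1 (0.95) and PCMTD1 (0.94). TIMP1 was most like ARPC2 (0.93), a subunit of the actin-nucleating ARP2/3 complex, SH3BGRL3 (0.92) and the actin-severing CFL1 (0.92). TIMP2 was most like the matricellular CCN3 (0.94), QPCT (0.93) and ZBTB4 (0.93).

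ADAM17 was most like RAI14 (0.94), CDC14B (0.92) and SAMD9L (0.92), and ADAM10 like POLK (0.91), SRGAP2 (0.88) and CERT1 (0.86). For TIMP3 the leading gene was LARP1B (0.93), followed by SH2D1B (0.92) and SPATS2L (0.92), whose r with TIMP3 was -0.20 within WM793 and 0.99 within A375. ADAM9 was like NMT2 (0.91), with an r of 0.07 within 1205Lu, and ANO6 (0.88). MMP14 was most like SPATA2L (0.87), C1orf122 (0.83) and CHPF (0.83), and MMP3 had no gene above 0.66 (ISG20L2, then SMPDL3A and LSG1 at 0.65). Among the 10 genes themselves, MMP2 and TIMP1 were opposed in every line (-0.93, -0.84 and -0.85 within 1205Lu, WM793 and A375), while MMP2 and TIMP3 were opposed in 1205Lu (-0.94) and A375 (-0.97) and not in WM793 (0.48).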

How the data were processed

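Total RNA of 36 cultures was sequenced after TruSeq RNA library preparation. Per the study's methods, the authors aligned reads to GRCh38 with STAR, estimated gene counts with RSEM on GENCODE 35 and scaled them with DESeq2 (median of ratios), and the deposited files hold the resulting normalised signal per gene, with no raw counts. Values were not whole multiples of 1 read, so the count tests that had been planned for the case of counts were not run.

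Of 60656 genes, 60401 were matched to a GENCODE 44 symbol, and totals per library ranged from 27027824 to 34621958. Genes that averaged 1 or more in some group were tested with limma 3.58.1 (R 4.3.3, trend) on log2(value + 1), so fold changes of low genes are understated. Each line was fitted with its 12 libraries, and lines were compared in a fit of all 36. Adjusted p is Benjamini-Hochberg over all genes tested, with a threshold of 0.05. Intervals are 95%. The code was tested on simulated data. A value per kilobase was divided by the union of annotated exons.

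The 10 genes and the related lists were chosen with earlier results of these data known. Text names the 10 genes, NR2F1 and DUSP6, fixed markers, genes overlapping the 10, and from each list at most 3 called genes per line with the largest change after BRAFi + MEKi, plus those called with DOX under BRAFi + MEKi. A gene given for 1 line may also be called in others, and some genes of that ranking, mostly low ones, are not named. A few results of these rankings are not reported here. The labels number the replicates without saying what separates them, and the study's methods state that its in vitro replicates came from separate experiments. The p-values measure the spread between these samples. Same-numbered libraries deviated together in 29 of 36 pairs (Pearson r over 0.1, range 0.02 to 0.49, over 14671 genes), and in every pair for DOX under BRAFi + MEKi in the 3 lines, for DOX under DMSO in 1205Lu and WM793 and for BRAFi + MEKi in 1205Lu. For these the numbers were taken to pair the cultures. The main p-values still come from fits without the replicate block, which was run as an alternative. Alternatives were a pseudocount of 0.1, no filter, a mean of at least 10, a replicate block, equal totals, array weights, only the groups compared, 1 fit of all 36 libraries, leaving out each library, and another exon length.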

Additional observations from a re-analysis of the deposited data

Results flagged for a closer look

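The response to BRAFi + MEKi was called different for 4 of the 10 genes in WM793 minus 1205Lu, where 14.5% of all genes were. The counts were 3 in WM793 minus A375 (22.8% of all genes) and 5 in 1205Lu minus A375 (14.7%). For WM793 minus 1205Lu the log2 differences were 1.16 for ADAM9, -0.77 for MMP2, 1.13 for TIMP1 and 2.08 for TIMP3. For WM793 minus A375 they were 1.92 for ADAM9, 1.29 for ADAM17 and 3.96 for TIMP3. For 1205Lu minus A375 they were 0.77 for ADAM9, -0.76 for ADAM10, 0.80 for MMP2, -1.31 for TIMP1 and 1.88 for TIMP3. ADAM9 and TIMP3 appear in all 3 pairs. The effect of DOX on TIMP3 in A375 differed between cells with and without BRAFi + MEKi by 0.96, and this was the least stable of these results when single libraries were left out.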

How the results depend on the processing

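Over the settings other than leaving out a library, 1754 of 1823 values of the 10 genes kept their direction and their side of the threshold, 18 lost the call, 32 gained it and 19 without a call changed sign. With 1 library left out the numbers were 1812, 47, 19 and 99 of 1977. No called value reversed. Rescaling to equal totals moved the median of all genes by 0.204 in WM793 and 0.154 in A375 for BRAFi + MEKi against DMSO, and by -0.155 for the DMSO level of WM793 against A375.

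For DOX under BRAFi + MEKi, none of the 10 genes passed in the main fit. The replicate block gave 1 in 1205Lu and 1 in A375. Array weights gave 2 in 1205Lu, 2 in A375 and 1 in WM793, and 1 fit of all 36 libraries gave 1 in 1205Lu. The share of all genes called under each alternative is not given here, so the counts of this paragraph stand without that background. Leaving out single libraries gave 0 to 1 in 1205Lu and 0 to 1 in A375. For the difference between the DOX effects in A375, the count of 1 became 0 with no filter and 0 in 1 fit of all 36 libraries, and 0 to 1 without single libraries. For the DOX effect between lines, the replicate block gave 1 and array weights gave 1 for WM793 minus 1205Lu, and array weights gave 2 and leaving out single libraries 0 to 1 for 1205Lu minus A375. The count tests planned for counts, with DESeq2 as the alternative, could not be run. Elsewhere the paired fit moved no other count of calls by over 1.5 times. With the length of the longest transcript, the MMP to TIMP ratio was 1.71 and 1.26 in WM793 with DMSO and BRAFi + MEKi, and 0.27 and 0.356 in A375 with DMSO and DMSO + DOX. The cause was not tested. The number of reads limits MMP1 outside WM793 and MMP3 in all lines, and the depth of WM793 DMSO replicate 1 limits that group.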
